A study of Mus musculus with 6 samples.

Results

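The 25 genes described here encode the parts of inhibitory synapses and the proteins that mark inhibitory interneurons: subunits of the GABA-A, GABA-B and glycine receptors, the enzymes that make GABA, its vesicular transporter, synaptic scaffold proteins, calcium-binding proteins, and transcription factors and a long noncoding RNA of the interneuron lineage. They were taken by exact gene symbol from a table of 34250 genes, and 25 of 25 were found. The table held 6 RNA-seq libraries of C57BL/6 wild-type mouse brain labelled as oligodendrocyte progenitor cells (OPCs), 3 from control cultures and 3 from cultures given fibrinogen at 2.5 mg according to the column names (2.5 mg/mL according to the methods). According to the methods, the cells came from the cortex of pups taken within a day of birth, were grown as a mixed culture, shaken off and then treated with fibrinogen, the clotting protein of blood plasma, or with vehicle, and both groups shared a medium with hydrocortisone, PDGF-AA and bFGF. No genotype other than wild type was used. The labels do not state that replicate libraries stem from different cultures or litters, and the p-values therefore measure only how far these libraries differ, which may be technical.

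The labelled cell type was checked against its defining markers. Levels are given as RPKM, read counts scaled by gene length and library depth, which can be set side by side between genes. The genes named for this check were chosen after their values were seen. The OPC receptor gene Pdgfra stood at 6.85 ± 1.02 RPKM in controls and Cspg4 (NG2) at 0.538 ± 0.0672 RPKM (SD, n = 3), whereas the neuronal vesicle-fusion gene Snap25 stood at 644 ± 81.1 RPKM. The summed level of the neuron marker list ranged from 2020 to 2270 RPKM in controls and from 2070 to 2520 RPKM with fibrinogen, and that of the OPC list from 61.0 to 63.0 RPKM and from 87.1 to 91.6 RPKM. Neuronal transcripts were thus abundant in all 6 libraries, against the label. In such bulk samples fewer cells of a type and less RNA per cell cannot be told apart. Between 36670999 and 44448983 reads were assigned per library. The first principal component, with 51.4% of the variance, separated the groups, with controls at -23.45 to -19.94 and fibrinogen libraries at 17.49 to 24.25. Control replicate 3 stood apart from the other libraries on the second, which held 22.6% of the variance.

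GABA is the main fast inhibitory transmitter of the adult brain. It is made from glutamate by glutamate decarboxylases, packed into vesicles and released onto GABA-A receptors, which are chloride channels of 5 subunits, and onto GABA-B receptors, which act through G proteins. The subunits that make up a GABA-A receptor set its location and kinetics. Glycine receptors work in a like way and share the scaffold protein gephyrin. In the cortex GABA is released by interneurons, which arise in the ganglionic eminences under the control of Dlx and Lhx6 transcription factors and are commonly sorted by the calcium-binding proteins and peptides they contain.

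With fibrinogen, 1 of the 25 genes rose: Gabrb2, which encodes the beta2 subunit of the GABA-A receptor, went from 12.9 to 18.7 RPKM. None fell. The other 23 that could be tested did not pass, although Gabrb1, Gabbr2, Glrb, Dlx1 and Dlx6os1 were higher, and Gphn and Lhx6 lower, in every fibrinogen library than in every control library, which was common over all genes (17.4% and 17.7%), while the genes that make and pack GABA (Gad1, Gad2, Slc32a1) overlapped between the groups.

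Each gene was tested with limma on log2(RPKM + 1) over the 14710 genes that reached 1 RPKM in 3 or more libraries, and a call required a Benjamini-Hochberg adjusted p under 0.05. Since 1 is added before the logarithm, a log2 change understates the change of genes at a few RPKM. Of the 25 genes, 24 passed the filter and Glra2 did not. The share called higher was 1 of 24 (4.17%), against 5.87% of all genes tested, and the share called lower was 0 of 24, against 5.62%. The share called in either direction over all genes was 11.5%. The count of 0 lower genes was also 0 by limma at an unadjusted p under 0.05, against 15.0% of all genes, and 0 by limma-voom on recovered reads.

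At an unadjusted p under 0.05, limma put 9 of the 24 (37.5%) higher with fibrinogen, against 14.4% of all genes. Non-overlapping groups were found higher for 6 of the 24 genes, against 17.4% of all genes, and lower for 2 (8.33%), namely Gphn and Lhx6, against 17.7%. Over all genes, 35.1% had groups that did not overlap in either direction. The median log2 change of the 24 genes was 0.15, and that of all genes tested was -0.008. These counts describe the 24 genes, which share pathways and genomic clusters and are not independent of each other.

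**Figure D1:**
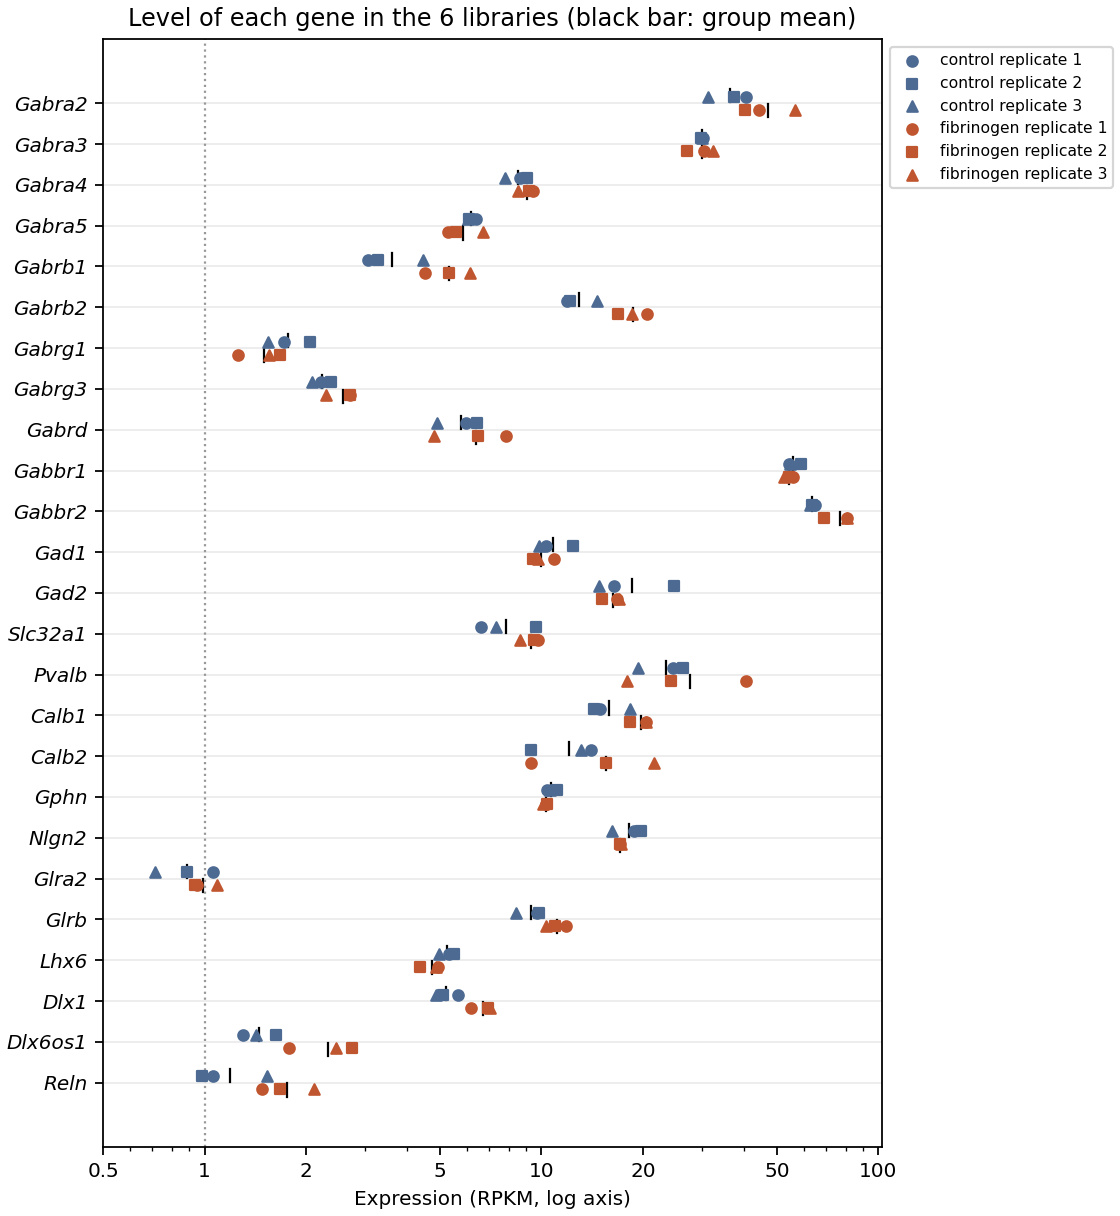
Level of each of the 25 genes in each library, in RPKM on a log axis, with 3 control and 3 fibrinogen libraries as points and the group mean as a line. Gabbr1, Gabbr2 and Gabra2 are the most abundant, at 36.3 to 77.0 RPKM, and Glra2 is the lowest, at about 1 RPKM.

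**Figure D2:**
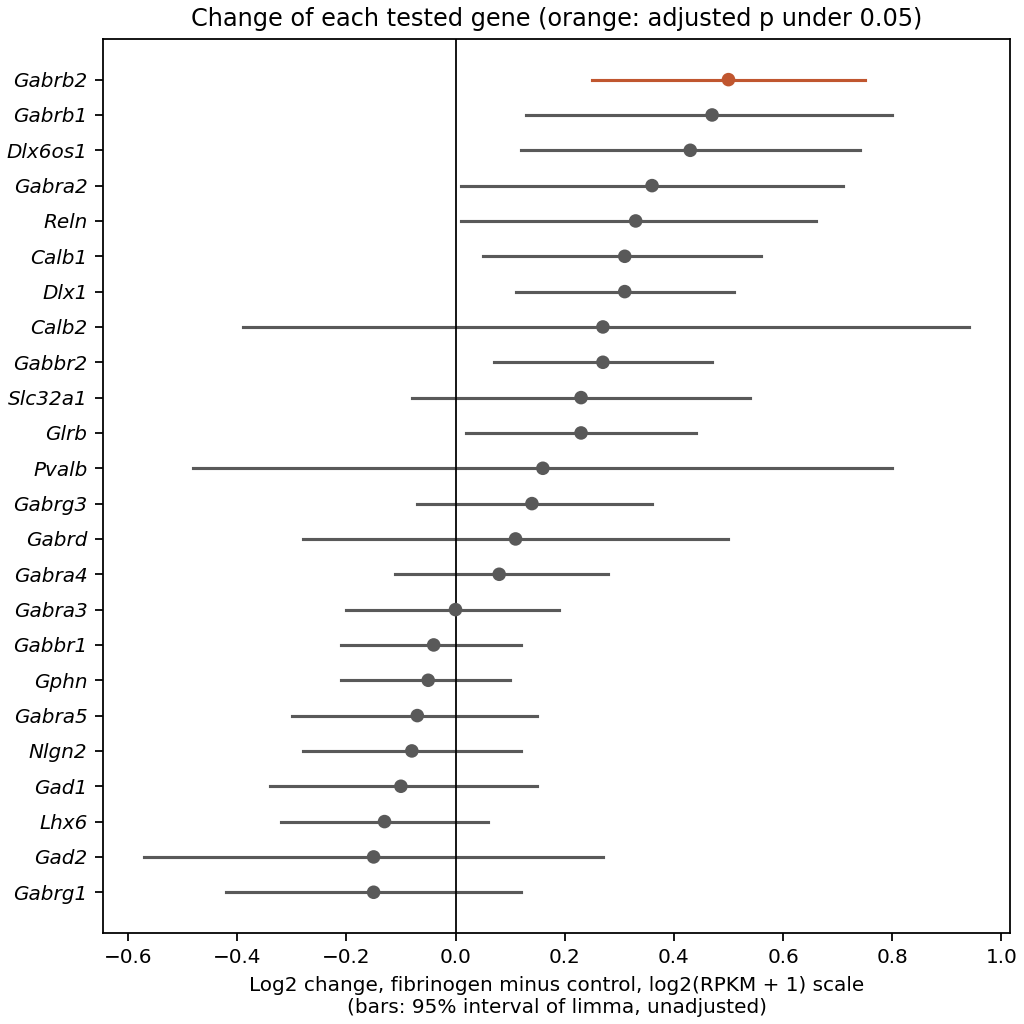
Change of each of the 24 genes tested with fibrinogen, as the difference in log2(RPKM + 1) with its 95% confidence interval, not adjusted for the number of genes. Gabrb2, the one gene that passed the adjusted threshold, lies at 0.50 with an interval of 0.25 to 0.75.

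Gabrb2 lies on the plus strand of chromosome 11 at 42419757-42629028 (GRCm38). Its level was 11.9, 12.2 and 14.6 RPKM in the control libraries and 20.6, 16.9 and 18.6 RPKM in the fibrinogen libraries. Every fibrinogen library was above every control library. The means were 12.9 ± 1.46 and 18.7 ± 1.83 RPKM (SD, n = 3 each), a ratio of 1.45, on 2897 to 4879 reads per library. The log2 change was 0.50 ± 0.11 (SE; limma adjusted p = 0.0294). The call did not survive the removal of a library in 4 of 6 cases: the adjusted p was 0.109 without control replicate 1, 0.089 without control replicate 2, 0.0968 without fibrinogen replicate 1 and 0.0908 without fibrinogen replicate 3, with a log2 change of 0.44 to 0.59 over the 6 fits.

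Gabrb1, which encodes the beta1 subunit, lies on the plus strand of chromosome 5 at 71658113-72149037. Its level was 3.06, 3.27 and 4.44 RPKM in controls and 4.52, 5.32 and 6.12 RPKM with fibrinogen. The groups did not overlap, though the highest control library, replicate 3, came close to the lowest fibrinogen library. The ratio of the means was 1.48 and the log2 change was 0.47 ± 0.14 (limma adjusted p = 0.0799), which did not pass. Without control replicate 3 it passed, with a log2 change of 0.60 (adjusted p = 0.0263).

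The promoter windows of these beta subunit genes are printed because Gabrb2 was the gene that was called and Gabrb1 is its relative with a difference of like size. They run from 250 bases before to 50 after the RefSeq start on GRCm38.p6, 5′ to 3′ on the plus strand, which is the strand of both genes. Capitals mark matches to TATAAA (the TATA box) and GGGCGG (the GC box, written CCGCCC where it lies on the other strand).
Gabrb2 (chr11:42420190-42420489, the first of 3 listed starts): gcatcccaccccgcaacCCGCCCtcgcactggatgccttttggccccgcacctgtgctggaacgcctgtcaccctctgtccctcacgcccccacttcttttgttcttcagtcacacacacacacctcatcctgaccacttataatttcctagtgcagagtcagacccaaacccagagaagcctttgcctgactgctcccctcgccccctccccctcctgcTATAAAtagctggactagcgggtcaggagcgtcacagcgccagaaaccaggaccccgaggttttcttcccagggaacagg
Gabrb1 (chr5:71657671-71657970, the first of 2 listed starts): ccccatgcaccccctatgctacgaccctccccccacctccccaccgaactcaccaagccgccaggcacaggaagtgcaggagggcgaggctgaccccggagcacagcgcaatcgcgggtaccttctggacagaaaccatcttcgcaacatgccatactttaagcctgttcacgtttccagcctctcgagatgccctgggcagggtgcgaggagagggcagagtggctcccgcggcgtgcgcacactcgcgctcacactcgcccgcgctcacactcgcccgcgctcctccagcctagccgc

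The Gabrb2 window holds TATAAA with its first base 30 bases before the start and a GC box on the minus strand 233 bases before it. The Gabrb1 window holds neither, nor TGACGTCA, the cyclic AMP response element, the other motif searched. It has 25 CpG dinucleotides and a GC content of 66.0%, against 11 and 59.0% for Gabrb2. Searched on both strands, with no overlap between the motifs, TATAAA was found in 13.6%, GGGCGG in 35.7% and TGACGTCA in 1.79% of 32851 promoter windows of this length. Of the 25 genes, 22 matched a promoter entry. TATAAA was found in 4 of these windows (Gad1, Gabrb2, Gabra3 and Glra2), GGGCGG in 14 and TGACGTCA in 0. A match of letters is a description of the window only.

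The alpha subunits, which with the gamma subunits form the benzodiazepine site, were led by Gabra2 and Gabra3. Gabra2 stood at 40.5, 37.2 and 31.3 RPKM in controls and 44.3, 40.2 and 56.7 RPKM with fibrinogen. The groups overlapped, and fibrinogen replicate 3 was the highest library. The means were 36.3 ± 4.65 and 47.0 ± 8.62 RPKM, and the log2 change of 0.36 ± 0.15 did not pass (limma adjusted p = 0.161). Gabra3 was level: its libraries ran from 29.7 to 30.2 RPKM in controls and from 27.0 to 32.4 RPKM with fibrinogen, and the 95% confidence interval of its log2 change was -0.20 to 0.19. Gabra4 (8.51 and 9.05 RPKM) and Gabra5 (6.19 and 5.86 RPKM), the latter known for receptors outside the synapse in hippocampus, had log2 changes of 0.08 and -0.07, and neither passed (limma adjusted p = 0.554 and 0.653). Of the exon bases of Gabra4, 46 also lie in Gabrb1 on the opposite strand, and 148 of those of Gabra5 in Gm9962. The strand setting of the counting is not given in the sources used here.

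Among the other subunits, Gabrg1 and Gabrg3 encode gamma subunits and Gabrd encodes delta, found in extrasynaptic receptors. Gabrg1 was 1.72, 2.06 and 1.54 RPKM in controls and 1.26, 1.68 and 1.55 RPKM with fibrinogen, on 364 to 634 reads. Gabrg3 had means of 2.23 ± 0.143 and 2.57 ± 0.238 RPKM. Gabrd ranged more widely with fibrinogen, at 7.83, 6.49 and 4.81 RPKM, than in controls, at 5.98, 6.43 and 4.91 RPKM. The groups overlapped for each of these genes, and none passed (limma adjusted p = 0.427, 0.338 and 0.696).

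GABA-A subunit genes lie in clusters, and neighbours did not all move together. On chromosome 5, over 1398 kb from 70751047 to 72149037, the log2 changes were -0.15 for Gabrg1, 0.36 for Gabra2, 0.08 for Gabra4 and 0.47 for Gabrb1. On chromosome 7 Gabrg3 (0.14) and Gabra5 (-0.07) ran close to 0. None of these 6 genes passed.

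The makeup of each receptor class was expressed as the share of each gene in the summed RPKM of those of the 25 genes that belong to the class. These shares depend on which genes make up the sum. Over all rows of a class, the sum first chosen, the Gabrb2 share was higher with fibrinogen without overlap, the Gabra2 share overlapped, and the Gabrg3 share was lower with overlap, each unlike the result given here, whereas Gabra3, Gabra5 and Gabrg1 were lower without overlap under both sums. The values over all rows rest on genes that are not reported here. Shares were compared by a two-sided exact permutation test over libraries, which cannot go below p = 0.1 with 3 against 3, so no share could pass. Of 12 shares, 7 did not overlap between the groups (exact permutation p = 0.1 each, 0.171 adjusted over the 12). Shares of a class add up to 100% and move against each other, so these are not 7 separate differences.

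Of the beta subunit genes, Gabrb2 took the larger part, and the levels of both genes were higher in every fibrinogen library. The Gabrb2 share was 79.6%, 78.9% and 76.7% in controls and 82.0%, 76.1% and 75.3% with fibrinogen. Against Gabrb1 alone the groups overlapped, with a difference of -0.597 percentage points (exact permutation p = 0.8), and this direction did not hold over all rows of the class.

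Of the alpha subunit genes, Gabra2 took a larger and Gabra3 a smaller part with fibrinogen. The Gabra2 share was 47.2%, 45.3% and 41.7% in controls and 49.6%, 49.0% and 54.3% with fibrinogen. The Gabra3 share was 35.2%, 36.2% and 39.9% in controls and 33.9%, 33.0% and 31.1% with fibrinogen, while the mean level of Gabra3 itself was 29.9 RPKM in both groups. Neither share overlapped between the groups. The Gabra5 share was 7.66 ± 0.367% and 6.39 ± 0.44%, also without overlap, and that of Gabra4 10.5 ± 0.516% and 9.99 ± 1.63%, with overlap. Of the gamma subunit genes, Gabrg1 took 43.8%, 46.5% and 42.3% in controls and 31.9%, 38.3% and 40.4% with fibrinogen, and Gabrg3 the rest. These shares did not overlap, although neither gene passed the test of its level.

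**Figure D3:**
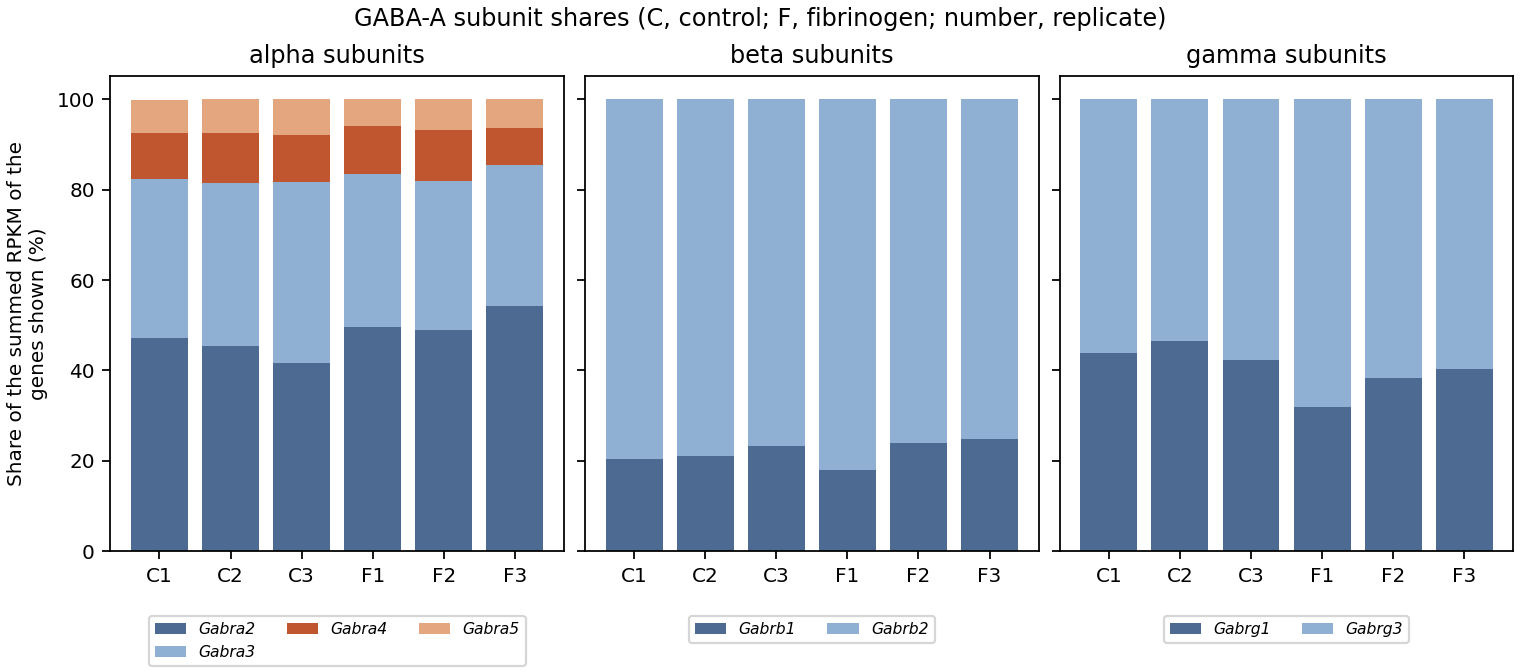
Stacked bars of the share of each gene in the summed RPKM of the alpha, beta and gamma subunit genes shown, in each of the 6 libraries, in percent, with C for control and F for fibrinogen. Gabra2 takes 41.7% to 47.2% of its panel in controls and 49.0% to 54.3% with fibrinogen, and Gabrb2 takes 75.3% to 82.0% of its panel over all libraries.

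The GABA-B receptor works as a pair of Gabbr1, which binds GABA, and Gabbr2, which couples to G proteins. Gabbr2 was 65.1, 63.4 and 62.5 RPKM in controls and 80.9, 69.1 and 81.0 RPKM with fibrinogen, above the controls in all 3 libraries. Its mean went from 63.7 ± 1.31 to 77.0 ± 6.84 RPKM, a ratio of 1.21, and the log2 change of 0.27 ± 0.08 did not pass (limma adjusted p = 0.0875). Gabbr1 was close in both groups, at 55.9 ± 2.46 and 54.2 ± 1.67 RPKM (log2 change -0.04, adjusted p = 0.708). The Gabbr1 share of the pair was 45.4%, 48.1% and 46.7% in controls and 40.8%, 44.0% and 39.3% with fibrinogen, without overlap.

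Of 7 genes for partners of the GABA-B receptor, 6 were tested, 2 rose and 0 fell (1 was lower by limma at an unadjusted p under 0.05, Kctd8, and 0 fell by limma-voom), with a median log2 change of 0.22. Of all genes tested, limma put 5.87% as risen and 5.62% as fallen, and 15.0% as lower at an unadjusted p under 0.05. Kcnj9, a subunit of the G protein-gated potassium channel that the receptor opens, was 97.3, 72.1 and 96.8 RPKM in controls and 129, 124 and 129 RPKM with fibrinogen (log2 change 0.53 ± 0.12, adjusted p = 0.0397). Kctd16, an auxiliary subunit that binds Gabbr2, went from 6.72 ± 1.16 to 9.99 ± 0.85 RPKM (log2 change 0.52 ± 0.12, adjusted p = 0.0406). For these genes every fibrinogen library was above every control library. Both calls were lost in 5 of the 6 fits that left out a library, all but that without control replicate 3, at an adjusted p of up to 0.12 for Kcnj9 and 0.126 for Kctd16. Kctd8, named after its values were seen, was at 2.12 and 1.48 RPKM (adjusted p = 0.0747).

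The genes of the presynaptic side showed no call. Gad1 and Gad2 encode the glutamate decarboxylases, and Slc32a1 encodes VGAT, the transporter that loads GABA and glycine into vesicles. Gad1 was 10.3, 12.4 and 9.81 RPKM in controls and 10.9, 9.47 and 9.76 RPKM with fibrinogen. Gad2 was 16.4, 24.7 and 14.8 RPKM in controls and 16.8, 15.1 and 17.0 RPKM with fibrinogen. Slc32a1 was 6.63, 9.65 and 7.33 RPKM in controls and 9.80, 9.49 and 8.64 RPKM with fibrinogen. The groups overlapped for each gene, and control replicate 2 was the highest control for all of them. The log2 changes were -0.10, -0.15 and 0.23 (limma adjusted p = 0.577, 0.615 and 0.290). Without control replicate 2 the log2 change of Gad2 was 0.061 (adjusted p = 0.748), on the other side of 0.

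The summed level of striatal projection neuron markers, cells that also use Gad1 and Gad2, was 398, 861 and 168 RPKM in the controls and 333, 309 and 245 RPKM with fibrinogen. Control replicate 2 was the highest for this sum too. No gene of that list was called by limma, against 11.5% of all genes tested. At an unadjusted p under 0.05 limma put 1 higher and 0 lower, against 14.4% and 15.0% of all genes, and limma-voom called 0. The part of these markers in the level of Gad2 was not tested. Gm14205, a gene on the opposite strand, covers 24.9% of the exon bases of Slc32a1. The Gad1 share of the 2 decarboxylases was 37.3 ± 3.45% and 38.1 ± 1.53%.

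**Figure D4:**
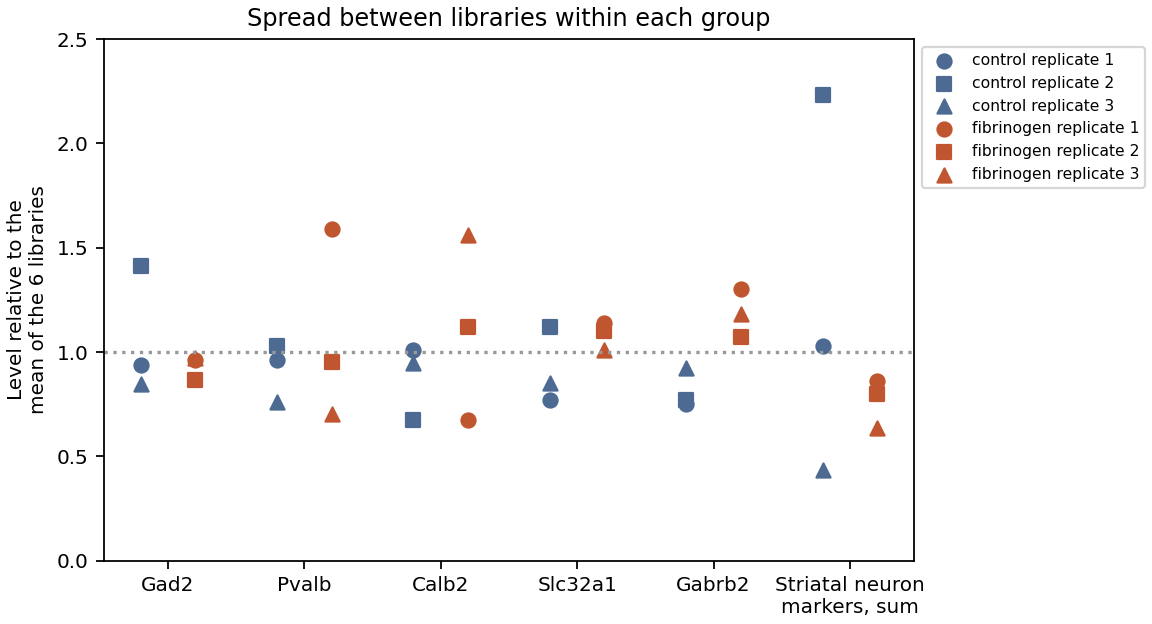
Level of selected genes and of the summed striatal marker list in each library, relative to the mean over the 6 libraries. Gad2 in control replicate 2 stands at 1.41 and the striatal sum at 2.23, Pvalb in fibrinogen replicate 1 at 1.59 and Calb2 in fibrinogen replicate 3 at 1.56, while Gabrb2 separates the groups.

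The calcium-binding proteins, which mark distinct interneuron classes and occur in other neurons as well, gave no call, and Pvalb and Calb2 varied widely between libraries of a group. Pvalb (parvalbumin, of fast-spiking interneurons) was 24.6, 26.4 and 19.4 RPKM in controls and 40.5, 24.3 and 18.0 RPKM with fibrinogen. Its high level with fibrinogen came from replicate 1 alone, and the log2 change of 0.16 became -0.15 without that library (limma adjusted p = 0.729 and 0.671). Calb2 (calretinin) was 14.0, 9.31 and 13.1 RPKM in controls and 9.32, 15.5 and 21.6 RPKM with fibrinogen. The coefficient of variation among fibrinogen libraries was 42.0% for Pvalb and 39.5% for Calb2, against 0.596% for Nlgn2. Calb1 (calbindin) was 14.9, 14.3 and 18.3 RPKM in controls and 20.4, 18.3 and 20.5 RPKM with fibrinogen. The lowest fibrinogen library was level with control replicate 3, and the log2 change of 0.31 ± 0.11 did not pass (adjusted p = 0.111). Without control replicate 3 it was 0.41 and passed (adjusted p = 0.0252).

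The scaffold genes differed little between the groups. Gphn encodes gephyrin, which anchors glycine and GABA-A receptors, and Nlgn2 encodes neuroligin-2, the adhesion protein of inhibitory synapses. Gphn was 10.4, 11.1 and 10.6 RPKM in controls and 10.3, 10.4 and 10.1 RPKM with fibrinogen. The groups did not overlap as measured, but the log2 change was -0.05 ± 0.07 (limma adjusted p = 0.632). Nlgn2 had means of 18.2 ± 1.78 and 17.1 ± 0.102 RPKM with overlap (log2 change -0.08, adjusted p = 0.568). Of 13 further genes for postsynaptic organisation and receptor trafficking, 0 were called by limma, against 11.5% of all genes tested. By limma 0 had an unadjusted p under 0.05, by limma-voom 0 were called, and the median log2 change was 0.02. Among the 13 were Lhfpl4, which tethers GABA-A receptors to neuroligin-2, at 108 and 106 RPKM, and Gabarapl1, at 102 and 104 RPKM.

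Glycine receptors consist of alpha and beta subunits, and the Glrb product binds gephyrin. Glrb was 9.68, 9.81 and 8.38 RPKM in controls and 11.8, 11.0 and 10.3 RPKM with fibrinogen. All fibrinogen libraries were above all controls, and the log2 change of 0.23 ± 0.09 did not pass (limma adjusted p = 0.139). Glra2, the alpha subunit of immature neurons, was 1.06, 0.886 and 0.713 RPKM in controls and 0.952, 0.936 and 1.09 RPKM with fibrinogen, on 96 to 141 reads. It did not pass the filter and was not tested. Of 5 further genes for glycine receptors and transport, 1 was tested: Slc6a9, the glycine transporter GlyT1, was at 1.54 ± 0.133 and 2.35 ± 0.432 RPKM (log2 change 0.39, adjusted p = 0.0722).

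The transcription factor genes of the interneuron lineage differed in direction. Lhx6, which acts in cells from the medial ganglionic eminence, was 5.33, 5.50 and 4.96 RPKM in controls and 4.94, 4.35 and 4.88 RPKM with fibrinogen. It was lower in every fibrinogen library, by a log2 change of -0.13 that did not pass (limma adjusted p = 0.332). Dlx1, a homeobox gene of migrating interneurons, was 5.67, 5.09 and 4.88 RPKM in controls and 6.16, 6.93 and 7.03 RPKM with fibrinogen. It was higher in every fibrinogen library, with a ratio of 1.29 and a log2 change of 0.31 ± 0.09 that did not pass (adjusted p = 0.0632) but did with limma-voom on recovered reads (adjusted p = 0.0427). Dlx1as overlaps 6.21% of the Dlx1 exon bases on the opposite strand, and Gm27953 overlaps 2.16% of those of Lhx6 on the same strand.

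Dlx6os1 (Evf2) is a long noncoding RNA from the Dlx5 and Dlx6 locus that is known to regulate these genes in the embryonic ventral forebrain. It spans 6820189-6871633 on the minus strand of chromosome 6, and Dlx6 lies within this span on the other strand at 6863334-6868568, without shared exon bases. Dlx6os1 was 1.30, 1.63 and 1.42 RPKM in controls and 1.78, 2.74 and 2.45 RPKM with fibrinogen, on 260 to 636 reads. The groups did not overlap, and the ratio of the means, 1.60, was the highest of the 25. The log2 change of 0.43 ± 0.13 did not pass (limma adjusted p = 0.0773) but did with limma-voom (adjusted p = 0.0416). Dlx6, named here after its values were seen, was 4.80, 6.64 and 2.86 RPKM in controls and 3.44, 3.76 and 2.66 RPKM with fibrinogen, with overlap (log2 change -0.38, adjusted p = 0.341).

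Of 15 further transcription factor genes of interneurons, 12 were tested and 0 were called by limma, against 11.5% of all genes tested. At an unadjusted p under 0.05 limma put 2 higher and 0 lower, against 14.4% and 15.0% of all genes. Limma-voom called 2, against 13.9% of all genes, and the median log2 change by limma was 0.04. Sp9 was at 15.5 and 13.5 RPKM (adjusted p = 0.301).

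Reln encodes reelin, which in the neonatal cortex is made by Cajal-Retzius cells and by some interneurons. It was 1.06, 0.985 and 1.53 RPKM in controls and 1.48, 1.68 and 2.12 RPKM with fibrinogen. The groups overlapped at control replicate 3, and the log2 change of 0.33 ± 0.14 did not pass (limma adjusted p = 0.157). Of 3 genes for reelin receptors and their adaptor, 0 were called by limma, against 11.5% of all genes tested. At an unadjusted p under 0.05 limma put 1 higher, against 14.4% of all genes, and limma-voom called 1, against 13.9%. Dab1, the adaptor, was at 12.8 and 11.2 RPKM and the receptor gene Lrp8 at 8.31 and 9.23 RPKM.

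Over all 77 further genes of these pathways, 60 were tested, 6 rose and 0 fell (limma; 1 lower at an unadjusted p under 0.05, 0 fell by limma-voom). Of all genes tested, limma put 5.87% as risen and 5.62% as fallen, and 15.0% as lower at an unadjusted p under 0.05. Besides Kcnj9 and Kctd16, the pathway genes that rose were a GABA transporter, a chloride transporter and a pair of interneuron-associated genes. Slc6a11 (GAT3, the GABA transporter best known from astrocytes) went from 8.53 ± 1.23 to 11.8 ± 0.0596 RPKM (adjusted p = 0.0410), as 1 of 5 uptake and breakdown genes tested, whose median log2 change was 0.07. Slc12a2 (NKCC1), which loads chloride into immature neurons, went from 6.46 ± 0.316 to 8.27 ± 0.343 RPKM (log2 change 0.31, adjusted p = 0.0396). It was 1 of 2 chloride transporter genes tested. The other, Slc12a5, named after its values were seen, was at 67.2 and 68.3 RPKM (log2 change 0.03, limma adjusted p = 0.865). Of 15 interneuron markers tested, Cck (cholecystokinin, also made by excitatory neurons) went from 39.3 ± 5.78 to 58.2 ± 5.77 RPKM (log2 change 0.56, adjusted p = 0.0345) and Kcnc2, a potassium channel gene of fast-spiking cells, from 4.19 ± 0.338 to 5.48 ± 0.246 RPKM (adjusted p = 0.0482). The median log2 change of these 15 was 0.23. At an unadjusted p under 0.05 limma put 6 of the 15 higher and 0 lower, against 14.4% and 15.0% of all genes. Without overlap, 7 were higher and 0 lower, against 17.4% and 17.7% of all genes. Each of these 4 calls was lost when most single libraries were left out, at an adjusted p of up to 0.121 for Slc6a11, 0.114 for Slc12a2, 0.113 for Cck and 0.163 for Kcnc2, and the exceptions were the removal of control replicate 3 for Slc6a11, Cck and Kcnc2 and of control replicate 2 for Cck. The peptide genes Sst, Npy and Vip, chosen after their values were seen, did not pass. Sst was 141, 165 and 91.7 RPKM in controls and 171, 156 and 181 RPKM with fibrinogen (adjusted p = 0.255), and Npy and Vip had log2 changes of 0.03 and -0.16 (adjusted p = 0.939 and 0.306).

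Markers of other cells moved between the groups as well, and their part in the values above was not tested. Over all genes tested, 5.87% rose and 5.62% fell by limma. Of 9 OPC markers tested, 6 rose, led by Gpr17 (log2 change 0.81), Cspg5 (0.59) and Olig2 (0.82), and of 9 myelin markers 3 rose, Opalin (1.36), Ermn (0.92) and Mag (0.76). The summed myelin level was 213 to 340 RPKM in controls and 248 to 404 RPKM with fibrinogen. Of 8 astrocyte markers Aqp4 rose (0.66) and Aldoc fell (-0.45), and the list summed to 506 to 594 RPKM in controls and 441 to 480 RPKM with fibrinogen. This sum includes Gfap, named after its values were seen. Gfap was 75.7, 82.5 and 222 RPKM in controls and 42.6, 32.3 and 42.4 RPKM with fibrinogen. Its log2 change of -1.5 did not pass (limma adjusted p = 0.0503). Without overlap, 2 of the 8 were higher and 3 lower, against 17.4% and 17.7% of all genes. Of 8 microglial markers Cx3cr1 rose (0.94) and C1qa fell (-1.35), with sums of 59.5 to 71.7 and 60.9 to 67.8 RPKM. Of 7 endothelial and mural markers Vtn (0.77) and Rgs5 (0.84) rose, with sums of 47.3 to 53.8 and 60.0 to 75.7 RPKM. Of the 12 called markers named here, 6 (Gpr17, Opalin, Aqp4, Cx3cr1, C1qa and Vtn) passed in all 6 fits that left out a library. The others passed in 5 of 6 fits for Ermn, 4 for Cspg5, 3 for Olig2, 2 for Mag and Rgs5 and 1 for Aldoc, with a limma adjusted p of up to 0.128 for Mag, 0.109 for Rgs5 and 0.11 for Aldoc.

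Among neurons of other kinds, the excitatory neuron markers summed to 745 to 842 RPKM in controls and 665 to 791 RPKM with fibrinogen. Neurod6 rose (log2 change 0.87, limma adjusted p = 0.0128, or 0.0531 without fibrinogen replicate 3) and Neurod2 fell (-0.43, adjusted p = 0.0333), a call that passed only without control replicate 3 among the 6 fits that left out a library (adjusted p of 0.044 to 0.122). Of the 11 neuron markers 1, Stmn2, rose (0.45, adjusted p = 0.0281) and 0 fell, against 5.87% and 5.62% of all genes tested. Stmn2 passed in 2 of these 6 fits, those without control replicate 3 or fibrinogen replicate 2 (adjusted p of 0.0222 to 0.0988). Without overlap, 3 of the 11 were higher and 2 lower (Rbfox3 and Eno2), against 17.4% and 17.7% of all genes. Rbfox3 and Eno2 were named after their values were seen. Rbfox3 was at 60.7 and 48.5 RPKM (log2 change -0.32, limma adjusted p = 0.0722). In the striatal list Penk was at 302 and 196 RPKM and Ppp1r1b at 140 and 69.3 RPKM (adjusted p = 0.886 and 0.185). Thalamic and cerebellar markers stayed low, at 14.6 to 20.5 RPKM and 10.7 to 18.4 RPKM in sum over all libraries. Of these markers 0 were called by limma, against 11.5% of all genes tested. In each list 1 was higher by limma at an unadjusted p under 0.05, against 14.4% of all genes. Limma-voom called 1, in the thalamic list. The most abundant of these markers, Slc17a6 and Tnnt1 of the thalamic and Neurod1 and Zic1 of the cerebellar list, had log2 changes of 0.57, -0.08, -0.03 and 0.45. No marker of these lists was at 0 in all libraries.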

How the data were processed

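Poly(A) RNA of 6 libraries was sequenced on an Illumina instrument after a stranded kit. Per the labels, the authors trimmed reads with Trimmomatic 0.39, aligned them with STAR 2.7.6a to GRCm38/mm10, counted with featureCounts 1.5.1 and used edgeR 3.12.1. The methods name another STAR release and GRCm39, and 22 of the 25 genes have a gene end within 10 bases of the RefSeq GRCm38.p6 annotation, so positions are given on GRCm38 as in the table. Strand setting and treatment of multi-mapping reads were not stated in the sources at hand. The deposited values are RPKM. Values above 0 were whole reads (100% within 0.001 reads) once multiplied by gene length and depth, which gave 36670999 to 44448983 reads per library.

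log2(RPKM + 1) was fitted with limma 3.58.1 in R 4.3.3 (level-dependent prior, 14710 genes reaching 1 RPKM in 3 or more libraries, Benjamini-Hochberg threshold 0.05), and limma-voom was run on the recovered reads as an alternative. Shares were taken among the 25 genes, in place of all rows of a class as first chosen, and compared by exact permutation. Some other genes of these classes and lists are not reported here. Alternatives were the pseudocount, filter, scaling, array weights, prior, replicate block, threshold and each library left out. The genes, lists and tests were chosen with earlier results of these data known. From the further lists, the genes named are the called genes of lowest p (at most 3 a list) or, with none called, the 2 most abundant tested, and others are marked as chosen after their values were seen. Also, 26 rows carry a date in place of a gene name.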

Additional observations from a re-analysis of the deposited data

How the results depend on the processing

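Calls were sparse and moved with the processing. Over all genes, 1689 were called (863 higher, 826 lower), against 4041 (2007, 2034) with array weights, 935 (447, 488) with no filter on low values, 1052 (468 lower) with a mean of at least 5 RPKM, and 2973 (1503, 1470) at an adjusted p threshold of 0.1. With limma-voom on recovered reads the count was 2045 (1057, 988). Leaving out a library gave 466 to 2300 (216 to 1182 higher, 248 to 1118 lower), with the most calls without control replicate 3. Libraries with the same number did not deviate together (correlations of 0.0583, -0.2441 and -0.0747), so they were not treated as pairs. A replicate block gave 600 calls (284, 316), of which 0 among the 25 genes and 10 in the further and marker lists.

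Of the 25 genes, 1 was called, Gabrb2. The count was 6 with array weights (Gabrb2, Calb1, Gabbr2, Reln, Gabrb1 and Dlx6os1), 4 with limma-voom (Gabrb2, Dlx1, Gabrb1 and Dlx6os1), 5 at a threshold of 0.1, 0 with no filter and 0 to 3 over the fits leaving out a library (0 without control replicate 1, control replicate 2, fibrinogen replicate 1 or fibrinogen replicate 3, and 3 without control replicate 3: Gabrb2, Calb1 and Gabrb1). No alternative called any of them lower. Over all genes tested, the share called was 11.5% in the main fit, 27.5% with array weights and 13.9% with limma-voom. It was 20.2% at a threshold of 0.1, 2.89% with no filter and 3.17% to 15.6% over the fits leaving out a library. The further and marker lists held 24 calls, against 44 with array weights, 11 with no filter, 39 at a threshold of 0.1 and 8 to 28 over the fits leaving out a library. The cause of these differences was not tested.

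Signs turned for genes close to 0 and for genes with a wide spread between libraries, such as Penk, at -0.18 ± 0.65 (SE) in the main fit. Gabra3 was 0.0072 with upper-quartile scaling, 0.0048 with median-of-ratios scaling and 0.00026 with array weights, and Gabarapl1 was -0.0065 with array weights. Leaving out a library gave -0.062 to 0.065 for Gabra3, -0.031 to 0.27 for Gabrd, -0.29 to 0.061 for Gad2, -0.15 to 0.42 for Pvalb, -0.15 to 0.045 for Lhfpl4, -0.048 to 0.08 for Gabarapl1, -0.96 to 0.53 for Penk, -0.33 to 0.15 for Tnnt1 and -0.23 to 0.082 for Neurod1. Counted over the 60 genes named or tracked and all alternatives, 875 of 1009 values kept direction and side of the threshold, 88 lost the call, 25 gained it and 21 changed sign. Of the shares among the 25 genes, 7 of 12 did not overlap between the groups, against 8 of 16 over all rows of each class, where the Gabrb2 and Gabrg3 differences had the opposite sign.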

Other observations

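Several subunit and transporter genes of inhibitory synapses were near the floor in all libraries. Gabrp was listed at 0 in all 6 libraries, and Gabre, Gabrr1 and Gabrr3 stayed under 0.1 RPKM. Glra3, a glycine receptor alpha subunit, was 0.503, 0.339 and 0.732 RPKM in controls and 0.474, 0.601 and 0.873 RPKM with fibrinogen. Glra1, the adult alpha subunit of the spinal cord, was 0.0867, 0.202 and 0.107 RPKM and 0.271, 0.196 and 0.342 RPKM. Gabrq, which encodes the theta subunit, was 0.117, 0.297 and 0.109 RPKM and 0.0866, 0.315 and 0.304 RPKM. Slc6a5, the neuronal glycine transporter GlyT2, was at most 0.0145 RPKM. At these levels no difference between the groups was tested.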
